A study of Rattus norvegicus with 16 samples.

Results

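The comparison described here is 1 h against 3 h after rats drank saccharin, in messenger RNA of the gustatory cortex, the area of insular cortex that receives taste input. It rests on 8 of the 16 arrays of the study, picked by their labels: the 4 of saccharin 1 h (C375, C377, C379 and C380) and the 4 of saccharin 3 h (C366, C368, C370 and C372). Each array holds the tissue of 1 male Wistar Hola rat, 2 months old by the labels. All rats, controls included, were put on restricted water for 3 days, and these 8 then drank 0.1% saccharin as a new taste. The 8 arrays of rats that drank familiar water, 4 at 1 h and 4 at 3 h, serve only as a second look at the same interval. No rat without a drink was part of these 4 groups, so a level at 1 h or at 3 h has no resting value beside it. Arrays C365 to C372 are all of 3 h and arrays C373 to C380 are all of 1 h, so whatever follows that numbering cannot be told apart from time.

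Neurons that fire strongly switch on a first wave of genes within minutes, without new protein synthesis. Many of these immediate early genes encode transcription factors such as Fos, Egr1 and Nr4a1, others encode proteins that act at synapses such as Arc, and others encode phosphatases and kinases that damp the signalling cascade which induced them. Their messengers are short-lived, and a second wave of genes follows while the first declines. In the insular cortex a new taste is known to engage muscarinic receptors, the MAP kinase ERK and the transcription factor CREB.

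Signals are log2 values normalised across all arrays, and a change is the mean at 1 h minus the mean at 3 h, so that a positive value means a higher level at 1 h. Array medians of the 8 saccharin arrays ran from 5.09 to 5.14, and any pair of them correlated at 0.995 to 0.997. The array annotation pairs 15209 of 28826 probe sets with exactly 1 gene, and these were tested in limma with 1 estimate of spread from all 16 arrays. A probe set was called at a Benjamini-Hochberg adjusted p under 0.05. The reference genes Gapdh and Actb changed by -0.03 (adjusted p = 0.952) and 0.03 (adjusted p = 0.954), and 0 of the 9 reference genes measured had an unadjusted p under 0.05. The cortical excitatory markers Slc17a7, the vesicular glutamate transporter, and Camk2a, a synaptic kinase, stood at 10.9 and 11.7 at 1 h. In bulk tissue, fewer cells of a type and less messenger per cell cannot be told apart.

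After saccharin, a part of the early response genes was higher at 1 h than at 3 h, among them 3 of 8 AP-1 subunits, 1 of 6 EGR and NAB genes, 1 of 3 NR4A receptors and 5 of 22 other early response factors. A smaller set was higher at 3 h, with the largest changes in Inhba, Kcnj2, Pde7b and Pde10a. The gene lists behind these counts were written with earlier results of these data known. limma called 53 probe sets of 52 genes, 0.348% of those tested. Of these, 42 probe sets of 41 genes were higher at 1 h (0.276%) and 11 of 11 genes were higher at 3 h (0.0723%). These shares are the background for each count of calls in a gene list. The changes towards 1 h were the larger, with a median of 0.52 and a range of 0.30 to 1.96 on the log2 scale, and 6 genes reached 2-fold. The changes towards 3 h had a median of -0.37 and a range of -0.64 to -0.26, and 0 reached 2-fold. Over all probe sets the median change was 0.0023 with an SD of 0.098, and 51.2% were positive. Without adjustment, p fell under 0.05 for 693 probe sets towards 1 h (4.56%) and for 521 towards 3 h (3.43%), the background for list members counted at that level. The methods of the study cut at an unadjusted p of 0.05 with a change of 0.32 log2 units or more, and 114 probe sets met this here (0.75%), 91 of them higher at 1 h, and 46 of the 114 were also called. On all 53 called probe sets the 4 arrays of 1 h did not overlap the 4 of 3 h, against 4.78% of all probe sets. The 53 were chosen on these same arrays, so their separation is no separate evidence. For any single gene such a separation gives an exact two-sided permutation p of 0.0286, the smallest that 4 arrays against 4 can reach. Just inside the threshold lay Slc25a25, a mitochondrial ATP carrier, at a change of 0.37 (adjusted p = 0.0456), and just outside it Vipr1, a receptor for vasoactive intestinal peptide, at 0.22 (adjusted p = 0.0543).

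**Figure D1:**
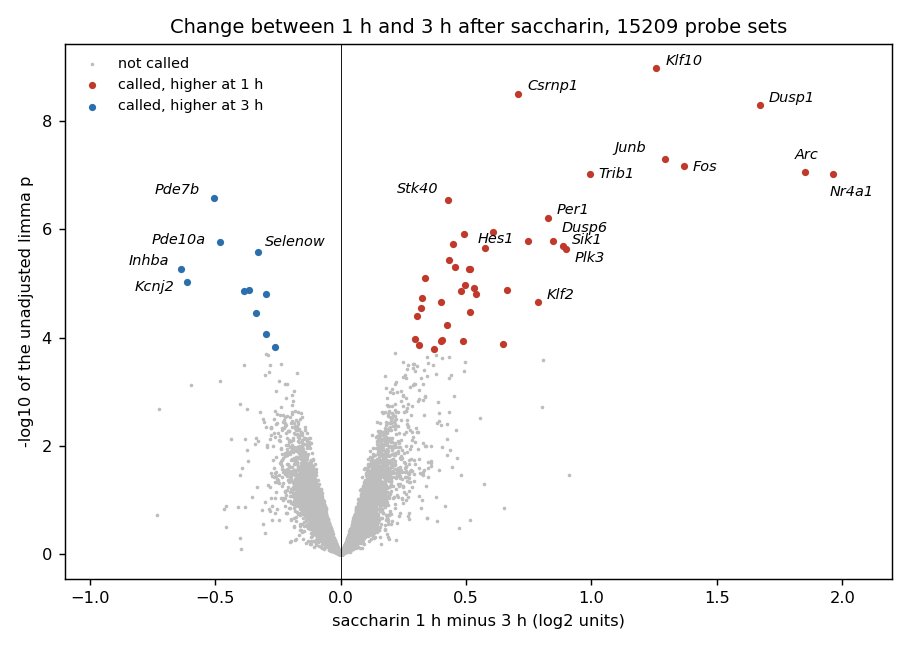
Change between 1 h and 3 h after saccharin (horizontal axis, log2 units) and -log10 of the unadjusted limma p (vertical axis) for 15209 probe sets, each 1 point. Red points are the 42 called higher at 1 h, blue points the 11 called higher at 3 h, and the red points reach 1.96 while the blue ones end at -0.64.

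**Figure D2:**
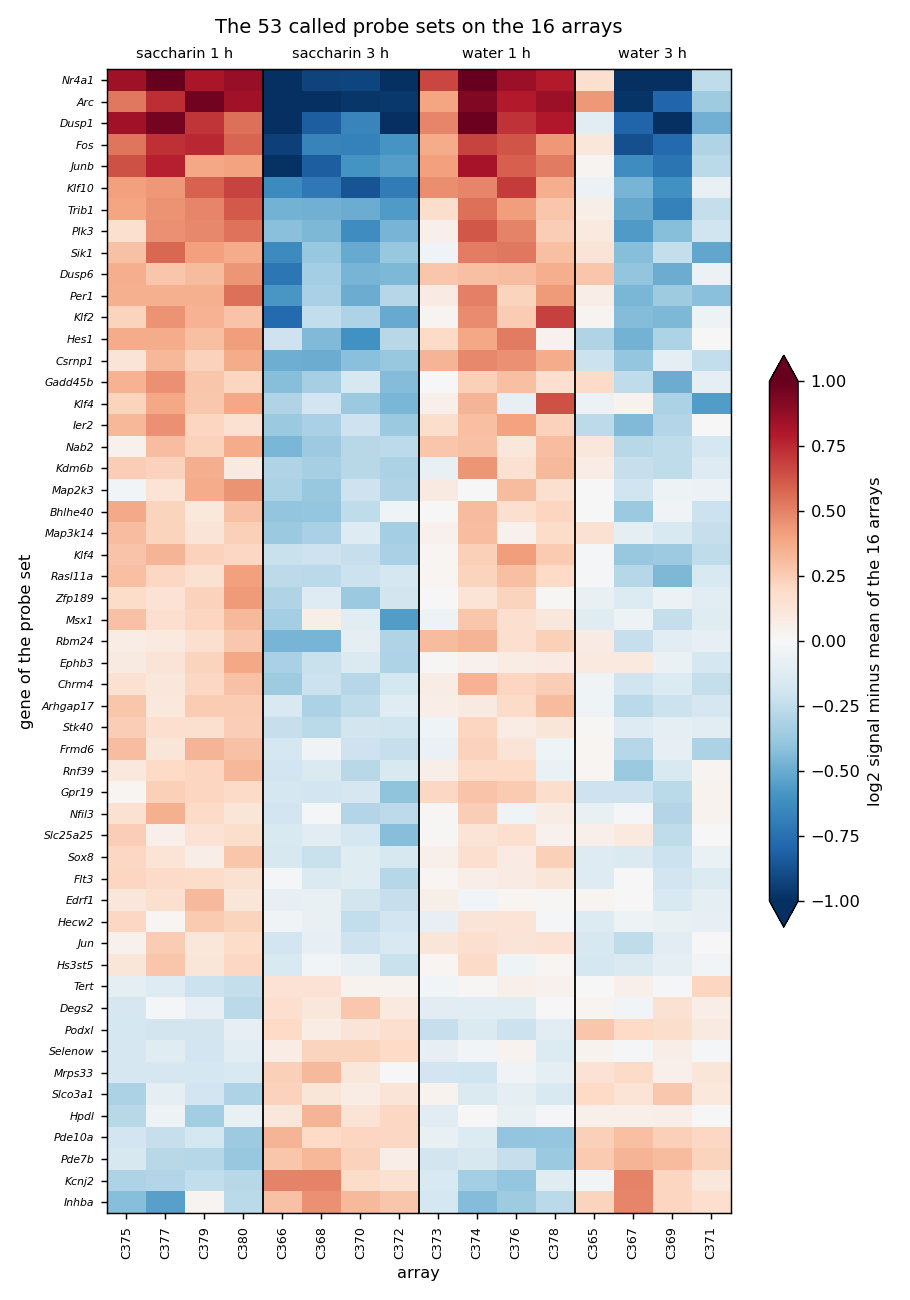
The 53 called probe sets (rows, by size of change) on the 16 arrays (columns, by group), coloured by log2 signal minus the mean of the 16 arrays, with colours ending at 1 either way. The saccharin 3 h columns are evenly blue in the upper rows, whereas in the water 3 h columns array C365 is mostly pale and Arc is red there.

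The Fos and Jun proteins pair to form the transcription factor AP-1, and 3 of its 8 subunits measured were called, all higher at 1 h, beside a background of 0.276%. Fos read 6.72, 6.91, 6.93 and 6.76 on the arrays of 1 h and 5.25, 5.52, 5.50 and 5.59 on those of 3 h, a change of 1.37 (SE 0.15, adjusted p = 0.000182), or 2.58-fold. Junb read 7.96, 8.10, 7.70 and 7.72 at 1 h and 6.33, 6.49, 6.72 and 6.77 at 3 h, a change of 1.29 (SE 0.14, adjusted p = 0.000182). For both genes the lowest array of 1 h was close to 1 log2 unit above the highest of 3 h. Jun changed less, by 0.31 (SE 0.06, adjusted p = 0.0144), and lost its call without any 1 of C366, C370, C377 or C380. The other 5 subunits had changes of -0.07 to 0.14, among them Jund at 0.14 (adjusted p = 0.655) and Fosl2 at -0.07 (adjusted p = 0.819).

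The 3 orphan nuclear receptors of the NR4A family, early response factors that bind DNA without a known ligand, did not move alike. Nr4a1 had the largest change of all called genes. It read 9.02, 9.17, 8.99 and 9.04 at 1 h and 6.70, 7.25, 7.26 and 7.16 at 3 h, a change of 1.96 (SE 0.23, adjusted p = 0.000182), or 3.90-fold. Array C366 was the lowest at 3 h, and the 4 arrays of 1 h lay within 0.2 of each other. Nr4a3 read 6.63 to 6.86 at 1 h and 6.21 to 6.43 at 3 h, with no overlap, and a change of 0.41 (SE 0.09) that did not pass (adjusted p = 0.0606). It passed in 5 alternatives, among them without water array C365 (adjusted p = 0.00416), without C367 and with only the 8 saccharin arrays, and its adjusted p ran up to 0.198. Nr4a2 read 8.09 to 9.0 at 1 h and 8.42 to 8.95 at 3 h, so that the groups overlapped, with a change of -0.16 (SE 0.17, adjusted p = 0.881).

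EGR factors are zinc finger proteins that activate synaptic genes, and NAB proteins bind them and repress their targets. The single call among 6 was the corepressor Nab2, at 7.01, 7.27, 7.19 and 7.33 at 1 h and 6.51, 6.60, 6.69 and 6.70 at 3 h, a change of 0.58 (SE 0.08, adjusted p = 0.00175). Egr2 had the larger change, 0.81 (SE 0.18), from 5.95, 6.11, 6.25 and 6.22 to 5.36, 5.25, 5.04 and 5.65, and did not pass (adjusted p = 0.0656). It passed in 5 alternatives, among them without water array C365 (adjusted p = 0.000948), without C372 and with only the 8 saccharin arrays, and its adjusted p ran up to 0.262. Its arrays did not overlap, but they spread more at 3 h, with an SD of 0.25. Egr1 changed by 0.39 (SE 0.12, adjusted p = 0.279), Egr4 by 0.11 (adjusted p = 0.823) and Egr3 by -0.09 (adjusted p = 0.836).

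Among 13 Krüppel-like zinc finger factors, 3 were called and all 3 were higher at 1 h, while the median of the family was -0.02. Klf10, an early gene first described as a target of TGF-beta, had the smallest p of all probe sets. It read 7.01, 7.03, 7.19 and 7.27 at 1 h and 5.96, 5.88, 5.74 and 5.90 at 3 h, a change of 1.26 (SE 0.11, adjusted p = 1.63e-05). Klf2, known from endothelium and lymphocytes, read 6.40 to 6.62 and 5.40 to 5.93, a change of 0.79 (SE 0.14, adjusted p = 0.00869). Klf4, a factor of stem cells and endothelium, was called on both of its probe sets, at 0.51 (adjusted p = 0.00319) and 0.65 (adjusted p = 0.0402). The second lost its call without any 1 of the 8 saccharin arrays, or of the water arrays C369 and C374. Klf6, Klf7, Klf11 and Klf12 had negative changes of -0.23 to -0.14 at an unadjusted p under 0.05, and none of the 4 passed adjustment, with the lowest adjusted p at 0.396 for Klf12. The CREB, ATF and C/EBP factors, which include the activator of many early genes, had 0 calls among 16 and a median of 0.0012.

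**Figure D3:**
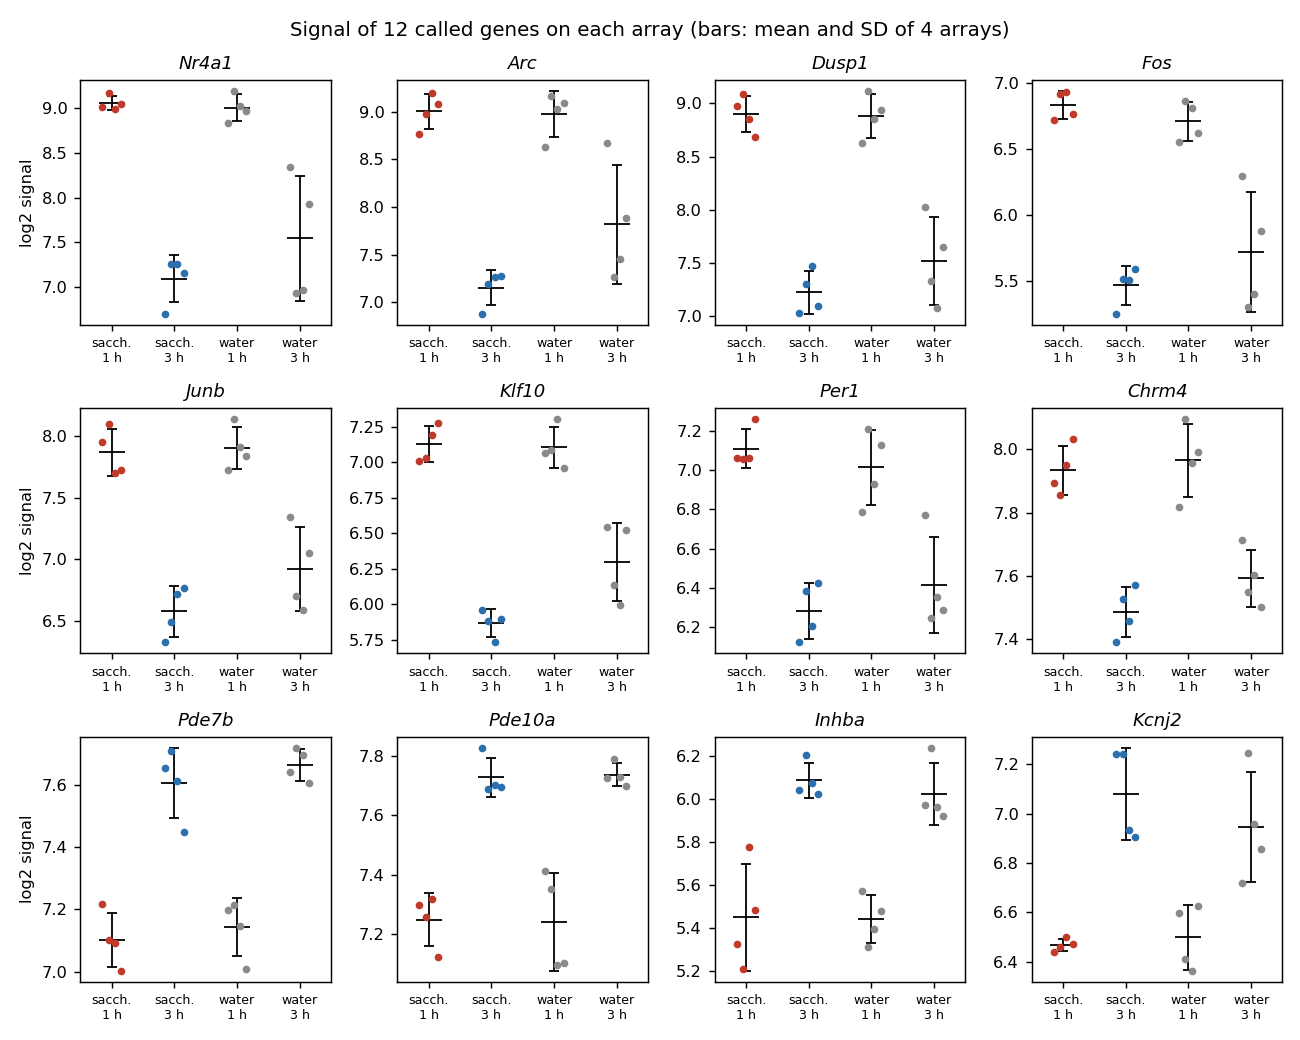
Log2 signal (vertical axes) of 12 called genes on each array of the 4 groups, with bars for the mean and SD. In the first 8 panels both groups of 1 h lie above both groups of 3 h by their means, in the last 4 below them, and the water 3 h arrays of Nr4a1 spread with an SD of 0.70.

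A broader list of 22 early response factors and RNA regulators had 5 calls, all higher at 1 h (background 0.276%), with a median change of 0.26. At an unadjusted limma p under 0.05 there were 14 members in that direction (background 4.56%) and 0 in the other (background 3.43%). The gene lists were written with earlier results of these data known, so these counts are no separate evidence. Csrnp1, a nuclear protein induced by AXIN1, read 5.34, 5.54, 5.44 and 5.58 at 1 h and 4.73, 4.71, 4.79 and 4.83 at 3 h, a change of 0.71 (SE 0.07, adjusted p = 2.43e-05). The groups were parted by 0.5 at the least. Ier2, a small nuclear protein of the early response, changed by 0.61 (SE 0.08, adjusted p = 0.00143). Kdm6b, which removes repressive methyl marks from histone H3, changed by 0.54 (SE 0.09, adjusted p = 0.00666). Its call was lost by least squares without moderation and with either marker covariate described below. Bhlhe40, a repressor tied to the clock, changed by 0.52 (adjusted p = 0.0122) and Nfil3, a basic leucine zipper factor, by 0.40 (adjusted p = 0.0359). Bhlhe40 lost its call without C366, C368, C375 or C380, each left out alone. Nfil3 lost it without any 1 saccharin array but C368, or without water array C378. Hes1, a repressor that carries out Notch signalling, was the 1 call among 11 Hes, Hey and Id repressors. It read 6.77, 6.78, 6.71 and 6.83 at 1 h and 6.20, 5.97, 5.80 and 6.13 at 3 h, a change of 0.75 (SE 0.11, adjusted p = 0.00164). The zinc finger gene Zfp189 changed by 0.49 (SE 0.07, adjusted p = 0.00143).

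Promoters of several of these genes are known to hold the cyclic AMP response element (CRE), the palindrome TGACGTCA that CREB binds, or the shorter core TGACG. Sequences of the 250 bases before the start site were taken from RefSeq (build GRCr8) and matched by symbol for 31 of the 41 genes higher at 1 h and 10 of the 11 higher at 3 h. Klf10, Csrnp1, Fos, Arc, Trib1, Zfp189, Sox8, Gpr19, Klf2, Jun and Pde7b had no match. The last 200 of those bases are printed for 6 genes higher at 1 h, chosen because they hold the CRE or its core, and for Inhba, higher at 3 h, for contrast. Each runs 5′ to 3′ on the strand of the gene and ends 1 base before the start site, and capitals mark the CRE, the core on either strand and the TATA box TATAAA.
Dusp1 (chr10:17184653-17184852, + strand): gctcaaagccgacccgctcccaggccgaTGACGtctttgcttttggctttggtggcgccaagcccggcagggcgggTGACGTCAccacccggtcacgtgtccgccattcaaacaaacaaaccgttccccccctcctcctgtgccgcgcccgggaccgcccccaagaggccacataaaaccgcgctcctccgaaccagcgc
Ier2 (chr19:40399173-40399372, + strand): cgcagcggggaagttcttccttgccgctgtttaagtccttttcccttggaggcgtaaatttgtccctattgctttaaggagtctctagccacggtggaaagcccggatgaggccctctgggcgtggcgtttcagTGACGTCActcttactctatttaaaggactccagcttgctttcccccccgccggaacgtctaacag
Nr4a1 (chr7:134259938-134260137, + strand): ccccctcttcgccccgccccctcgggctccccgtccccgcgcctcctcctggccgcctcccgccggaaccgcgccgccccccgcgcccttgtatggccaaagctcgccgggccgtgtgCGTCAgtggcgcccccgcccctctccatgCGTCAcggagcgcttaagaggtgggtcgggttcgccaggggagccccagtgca
Sik1 (chr20:9958647-9958846, - strand): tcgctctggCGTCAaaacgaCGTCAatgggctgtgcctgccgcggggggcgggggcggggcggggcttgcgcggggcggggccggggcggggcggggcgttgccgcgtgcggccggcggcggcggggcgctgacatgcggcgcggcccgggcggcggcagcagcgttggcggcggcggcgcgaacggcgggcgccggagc
Plk3 (chr5:135848901-135849100, - strand): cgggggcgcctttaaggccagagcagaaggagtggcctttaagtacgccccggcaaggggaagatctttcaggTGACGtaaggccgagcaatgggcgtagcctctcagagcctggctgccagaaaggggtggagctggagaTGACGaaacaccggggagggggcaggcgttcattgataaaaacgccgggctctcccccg
Junb (chr19:40080926-40081125, + strand): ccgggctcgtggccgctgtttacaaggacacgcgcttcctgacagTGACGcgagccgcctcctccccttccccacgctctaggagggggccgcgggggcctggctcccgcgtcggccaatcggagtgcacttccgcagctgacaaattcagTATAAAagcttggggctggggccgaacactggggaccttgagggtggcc
Inhba (chr17:53804509-53804708, - strand): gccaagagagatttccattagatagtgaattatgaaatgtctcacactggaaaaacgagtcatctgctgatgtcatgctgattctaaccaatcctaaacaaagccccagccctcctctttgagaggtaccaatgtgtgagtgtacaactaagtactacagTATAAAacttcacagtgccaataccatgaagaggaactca

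The full CRE, searched on both strands, stood in 3 of the 31 promoters (9.68%), those of Dusp1, Ier2 and Slc25a25, against 1.59% of all 33469 promoters and 2.28% of the 11963 of tested genes. The core, which each full CRE holds on both strands, stood in 12 of the 31 (38.7%) against 18.2% of all promoters and 23.3% of those of tested genes. In Dusp1 the CRE spans bases 124 to 117 before the start, and in Ier2 bases 66 to 59. Nr4a1 held 4 cores in the 250 bases, of which 2 are in the printed stretch, and Sik1 and Plk3 held 2 each. Among the 10 promoters of genes higher at 3 h the core stood in 1, that of Pde10a. The AP-1 site TGANTCA stood in 2 of the 31 (6.45%) against 6.34% of all promoters and 5.49% of those of tested genes. The EGR site GCGTGGGCG stood in 2 (6.45%), those of Rbm24 and Frmd6, against 0.478% and 0.769%. The E-box CACGTG stood in 4 (12.9%) against 5.59% and 6.92%, and the CArG box of serum response factor in 1 (3.23%) against 1.5% and 1.18%. The NR4A site AAAGGTCA stood in 0 of the 31 against 1.24% and 0.961%, and the TATA box in 3 (9.68%) against 12.9% and 11.3%. The median GC content was 63.2% for the 31 promoters, 65% for the 10, 57.2% for those of tested genes and 51.2% for all, and the CRE and its core contain CG. These shares describe letters in a window, and no binding was measured.

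Phosphatases and kinases around the MAP kinases formed the next group. Dusp1, a nuclear phosphatase that switches off p38, JNK and ERK, read 8.97, 9.09, 8.85 and 8.69 at 1 h and 7.03, 7.31, 7.48 and 7.10 at 3 h, a change of 1.67 (SE 0.16, adjusted p = 2.61e-05), or 3.19-fold. Dusp6, the cytoplasmic phosphatase of ERK, read 8.28, 8.19, 8.23 and 8.36 at 1 h and 7.19, 7.58, 7.45 and 7.46 at 3 h, a change of 0.84 (SE 0.12, adjusted p = 0.00164). These were the 2 calls among 20 dual-specificity phosphatases and Sprouty proteins, of which 16 had a positive change with a median of 0.06. Dusp5, a nuclear phosphatase of ERK, changed by 0.43 (SE 0.09) and missed the threshold (adjusted p = 0.0575), and it passed without any 1 of the water arrays C365, C367 or C371. Upstream kinases had 2 calls among 21: Map3k14, the kinase of noncanonical NF-kappaB signalling, at 0.51 (adjusted p = 0.00319), and Map2k3, which activates p38, at 0.53 (adjusted p = 0.00613). Map2k3 lost its call by least squares without moderation and with either marker covariate described below. The call of Map3k14 rests on 1 of its probe sets, and the other, a dim one with a mean of 3.01, had a change of -0.0008 (adjusted p = 0.999).

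Kinases that are themselves induced by activity had 4 calls among 12, all higher at 1 h (background 0.276%). Of the 12, 8 changed towards 1 h with an unadjusted limma p under 0.05 (background 4.56%). Trib1, a pseudokinase that steers proteins to degradation, read 6.37, 6.42, 6.46 and 6.58 at 1 h and 5.50, 5.49, 5.47 and 5.41 at 3 h, a change of 0.99 (SE 0.11, adjusted p = 0.000182). Its 3 h arrays lay within 0.1 of each other. Plk3, a Polo-like kinase of the stress response, changed by 0.90 (SE 0.13, adjusted p = 0.00175) and Sik1, a salt-inducible kinase that CREB induces and that holds back CREB's coactivators, by 0.89 (SE 0.13, adjusted p = 0.00174). Stk40, a kinase-like protein, had a smaller and tight change, from 7.53 to 7.62 at 1 h to 7.10 to 7.18 at 3 h (0.43, SE 0.05, adjusted p = 0.000443). Plk2, a kinase that weakens synapses, changed by 0.18 (adjusted p = 0.0921). Gadd45b, a stress protein that takes part in DNA demethylation, was the 1 call among 7 growth arrest and survival genes, at 0.66 (SE 0.11, adjusted p = 0.00616).

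A list of 26 activity-induced effector genes, not all of them synaptic or secreted, had 3 calls higher at 1 h (background 0.276%) and 1 higher at 3 h (background 0.0723%). At an unadjusted limma p under 0.05 there were 15 towards 1 h (background 4.56%) and 2 towards 3 h (background 3.43%). Arc, a protein that removes AMPA receptors from synapses, read 8.76, 8.98, 9.20 and 9.08 at 1 h and 6.88, 7.20, 7.26 and 7.27 at 3 h, a change of 1.85 (SE 0.21, adjusted p = 0.000182), or 3.61-fold. The lowest array of 1 h stood 1.5 above the highest of 3 h. Rasl11a, a small GTPase-like protein, changed by 0.49 (SE 0.08, adjusted p = 0.00564). Its call was also lost by least squares without moderation and with either marker covariate described below. Slc25a25 is the gene just inside the threshold, whose call ended without any 1 of 6 saccharin arrays. Its call also ended without any 1 of the water arrays C371, C373, C374, C376 and C378, and it passed in 10 of 28 settings. Other activity-regulated genes of the list were not called, with changes of -0.13 for Bdnf (adjusted p = 0.767), a neurotrophin, -0.06 for Homer1 (adjusted p = 0.902), a postsynaptic scaffold, and 0.46 for Ptgs2 (adjusted p = 0.318), the inducible cyclooxygenase.

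Inhba, which encodes the activin A subunit and which neuronal activity also induces, went the other way. It read 5.33, 5.21, 5.78 and 5.48 at 1 h and 6.04, 6.20, 6.07 and 6.02 at 3 h, a change of -0.64 (SE 0.10, adjusted p = 0.00319). Array C379 was the highest of 1 h and still 0.2 below the lowest of 3 h. Both phosphodiesterases called among 19 were higher at 3 h (background 0.0723%), and both degrade cyclic nucleotides in neurons. Pde7b is specific for cyclic AMP, and Pde10a takes cyclic AMP and cyclic GMP and is best known from the striatum. Pde7b read 7.22, 7.10, 7.09 and 7.0 at 1 h and 7.65, 7.71, 7.61 and 7.45 at 3 h, a change of -0.50 (SE 0.06, adjusted p = 0.000443). Pde10a read 7.30, 7.26, 7.32 and 7.12 at 1 h and 7.83, 7.69, 7.70 and 7.70 at 3 h, a change of -0.48 (SE 0.07, adjusted p = 0.00164). Kcnj2, the inward rectifier channel Kir2.1 that steadies the resting potential, read 6.44 to 6.50 at 1 h and 7.24, 7.24, 6.93 and 6.90 at 3 h, a change of -0.61 (SE 0.10, adjusted p = 0.00515). Its 4 arrays of 1 h lay within 0.1 of each other. It was the 1 call among 23 inward rectifier and 2-pore potassium channels, whose median change was -0.05.

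The remaining genes called higher at 3 h had changes of -0.39 to -0.26. Selenow, a small selenoprotein of redox regulation, read 8.23 to 8.30 at 1 h and 8.49 to 8.64 at 3 h (-0.33, SE 0.05, adjusted p = 0.00189), the 1 call among 24 selenoproteins and antioxidant genes. The others were Slco3a1, an organic anion transporter (-0.37, adjusted p = 0.00616), Hpdl, a mitochondrial dioxygenase-like enzyme (-0.39, adjusted p = 0.00616), Podxl, a sialomucin of the cell surface (-0.30, adjusted p = 0.00666), and Mrps33, a protein of the mitochondrial ribosome (-0.34, adjusted p = 0.0128). Mrps33 read between 7.80 and 7.82 on the 4 arrays of 1 h and between 7.98 and 8.29 at 3 h, and it lost its call without C366 or C379. Hpdl and Mrps33 also lost their calls with only the 8 saccharin arrays in the fit. With the striatal marker covariate described below, Hpdl and Slco3a1 were lost, and Slco3a1 also with the leptomeningeal one. Over all alternatives the limma adjusted p ran up to 0.082 for Hpdl and 0.168 for Slco3a1. Degs2, an enzyme of sphingolipid synthesis, at -0.30 (adjusted p = 0.0294), and Tert, the catalytic subunit of telomerase, at -0.26 (adjusted p = 0.0426), were the least stable: Degs2 lost its call without any 1 of 5 saccharin arrays and Tert without any 1 of 7, or of the water arrays C367, C373, C374, C376 and C378. Tert is also the dimmest of the called, with a mean above only 30.1% of the probe sets tested.

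Among receptors, Chrm4, the muscarinic M4 receptor that lowers cyclic AMP, read 7.89, 7.86, 7.95 and 8.03 at 1 h and 7.39, 7.53, 7.46 and 7.57 at 3 h, a change of 0.45 (SE 0.06, adjusted p = 0.00168). The groups were 0.3 apart, and Chrm4 was the 1 call among the 5 muscarinic receptors. Ephb3, a receptor tyrosine kinase for ephrin-B ligands, changed by 0.46 (SE 0.07, adjusted p = 0.00319), 1 of 16 Eph receptors and ephrins. The 16 AMPA, NMDA and metabotropic glutamate receptors had 0 calls and 0 members at an unadjusted p under 0.05, with changes of -0.18 to 0.11, and so did the 9 GABA-A receptor subunits, with changes of -0.11 to 0.04. Of 24 dopamine, adrenergic and serotonin receptors 0 were called. A negative change was seen in 19, whereas 51.2% of all probe sets had a positive one. An unadjusted limma p under 0.05 was reached by 4 towards 3 h (background 3.43%) and by 1 towards 1 h (background 4.56%). The most negative was Drd2, the dopamine D2 receptor, at -0.37 (adjusted p = 0.228). Drd2 is dim, at 4.23 to 5.08 on the saccharin arrays, and also counts among the striatal markers below.

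Per1, a clock gene that light, activity and glucocorticoids also induce, was the 1 call in a list of 13 clock genes. It read 7.06, 7.06, 7.06 and 7.26 at 1 h and 6.12, 6.38, 6.21 and 6.42 at 3 h, a change of 0.83 (SE 0.11, adjusted p = 0.00086). Per2 changed by 0.28 (adjusted p = 0.562) and Nr1d1, a repressor of the clock, by 0.29 (adjusted p = 0.114). The genes of that list outside Per1 ran from -0.14 to 0.29. Bhlhe40, called above, was counted among the early response factors and not in that list. Of 16 glucocorticoid receptors and targets 0 were called, while 13 had a positive change with a median of 0.08. The 20 chaperones of the endoplasmic reticulum, which the unfolded protein response induces, had 0 calls and 16 negative changes. The chaperone Hspa5 read 10.30 to 10.43 at 1 h and 10.58 to 10.59 at 3 h, with no overlap, a change of -0.20 (SE 0.06, adjusted p = 0.256). Among 18 cortical neuropeptides 0 were called.

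**Figure D4:**
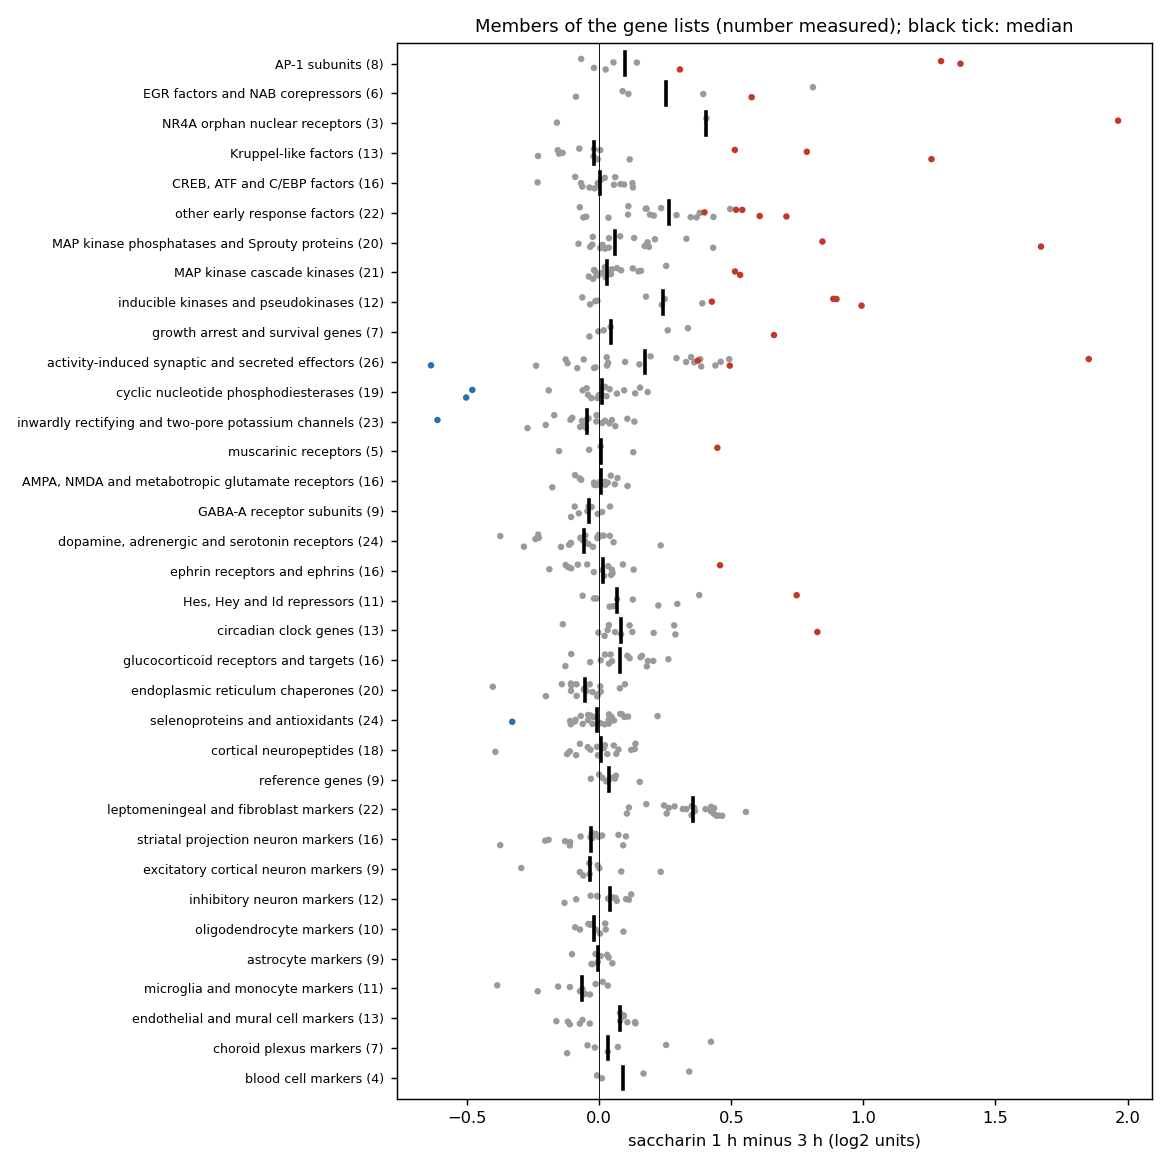
Change between 1 h and 3 h after saccharin (horizontal axis, log2 units) of each measured member of the gene lists (rows, number measured in brackets), with the median as a black tick. Red and blue points are the members called higher at 1 h and at 3 h, and the leptomeningeal markers lie between 0.10 and 0.56 without a call.

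Of the 41 genes called higher at 1 h, 12 belonged to no list, and their roles were mixed. Arhgap17 read 5.59 to 5.76 at 1 h and 5.16 to 5.36 at 3 h, a change of 0.43 (SE 0.07, adjusted p = 0.0026), and kept its call in every alternative. Sox8, a transcription factor of glia, changed by 0.34 (adjusted p = 0.00448), Rbm24, an RNA-binding protein, by 0.48 (adjusted p = 0.00616), Flt3, a cytokine receptor kinase, by 0.33 (adjusted p = 0.00774), and Gpr19, an orphan receptor, by 0.40 (adjusted p = 0.00869). Sox8 and Flt3 lost their calls with either marker covariate described below, and Flt3 also with only the 8 saccharin arrays. By least squares without moderation Rbm24 and Gpr19 lost theirs. Rbm24 also lost it with the striatal covariate and Gpr19 with the leptomeningeal one. The limma adjusted p ran up to 0.226 for Flt3 and 0.34 for Gpr19. Edrf1, named for a part in erythroid differentiation, changed by 0.32 (adjusted p = 0.0107) and Frmd6, a FERM domain protein of the Hippo pathway, by 0.43 (adjusted p = 0.0198) on 1 of its probe sets, the other giving 0.33 (adjusted p = 0.244). Hs3st5, a heparan sulfate sulfotransferase, the RING finger gene Rnf39, the homeobox gene Msx1 and Hecw2, a ubiquitin ligase, had changes of 0.30 to 0.49 and adjusted p of 0.0344 to 0.0413. For each of these 4 there were at least 6 saccharin arrays, and for Frmd6 6, whose removal, 1 at a time, ended the call. Msx1 and Hecw2 also lost it without some single water arrays, and Edrf1 without C370, C372 or C379. With either marker covariate, or with only the 8 saccharin arrays, Edrf1 was not called.

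Whether the same interval after familiar water looked alike was checked on 8 arrays of other rats. limma called 19 probe sets there (0.125%), and 18 of them were among the 53, which is 34% of the saccharin calls and 94.7% of the water calls. Both tests took the spread of a probe set from the arrays of both tastes pooled. A low pooled spread favours a call and a low p after either taste, so shared calls are not independent evidence. With only the 8 water arrays in the fit, 3 probe sets were called. All 53 had the same direction after water, against 61% of all probe sets, and 45 had an unadjusted p under 0.05 there, against 7.23% of all. In 33 of the 53 the water arrays of 1 h did not overlap those of 3 h either, against 4.35% of all. Klf10 changed by 0.81 after water (adjusted p = 0.00289), Dusp1 by 1.36 (adjusted p = 0.000809), Nr4a1 by 1.47 (adjusted p = 0.0089) and Arc by 1.16 (adjusted p = 0.0311). The water arrays of Arc overlapped between 1 h and 3 h. Pde7b and Pde10a changed by -0.52 (adjusted p = 0.000809) and -0.50 (adjusted p = 0.0034), close to their values after saccharin.

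The change was larger after saccharin for 50 of the 53, with a median ratio of water to saccharin of 0.70, but these genes were chosen on the saccharin arrays. The 19 called after water were chosen by their change on the water arrays, with the same pooled spread. Of these 19, 15 also changed more after saccharin, with a median ratio of saccharin to water of 1.20. A test of the difference between the tastes called 0 probe sets in limma, with 450 at an unadjusted p under 0.05 (2.96%), of which 14 were among the 53. After water Selenow changed by -0.07 (SE 0.05, adjusted p = 0.807) and Ephb3 by 0.06 (SE 0.07, adjusted p = 0.903). Stk40 kept a smaller positive change of 0.17 (SE 0.05, unadjusted p = 0.00527, adjusted p = 0.405). For these 3 the difference had an unadjusted p of 0.00149, 0.001 and 0.00327, and none passed adjustment (adjusted p = 1). The 1 gene called after water and not after saccharin was Rcor2, a corepressor, on its dimmer probe set, at 1.67 after water (adjusted p = 0.0118) and 0.04 (SE 0.27, adjusted p = 0.991) after saccharin.

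**Figure D5:**
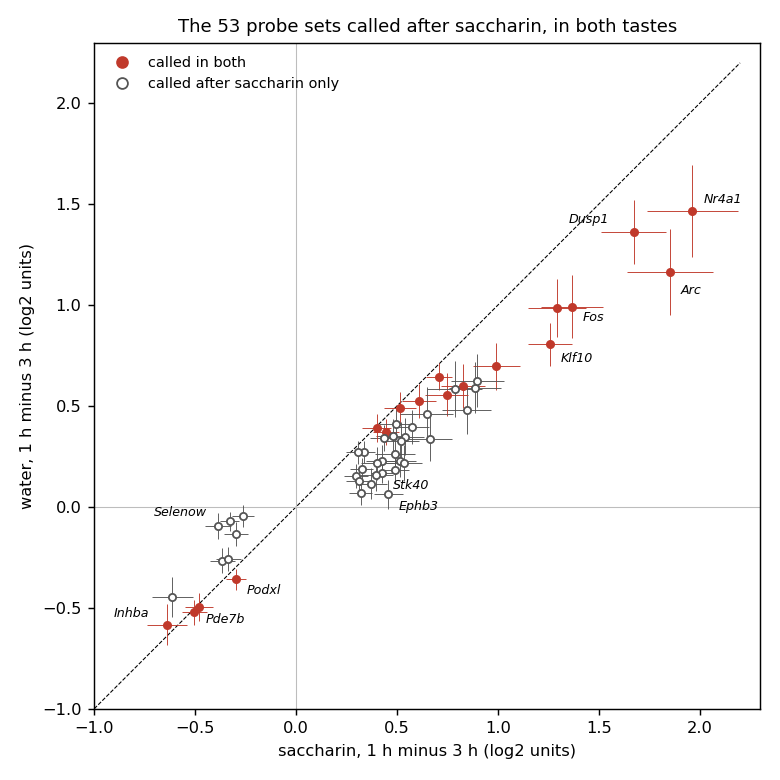
Change between 1 h and 3 h after saccharin (horizontal axis) and after water (vertical axis), in log2 units with standard errors, for the 53 probe sets called after saccharin. Filled red points are the 18 called after both tastes, and all but 3 points are closer to 0 on the water axis than on the saccharin axis (dashed line: equal change).

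Per time point, the tastes lay close together at 1 h. The 42 probe sets higher at 1 h were chosen on the saccharin arrays. That choice favours saccharin above water at 1 h and below it at 3 h. For these 42 the median difference of saccharin minus water was 0.08 at 1 h, with 35 of 42 above 0. At 3 h it was -0.15, with 40 of 42 below 0. The 15 probe sets called higher at 1 h after water were chosen by their change on the water arrays, with the pooled spread. They had medians of 0.02 and -0.16, with 13 of 15 below 0 at 3 h. No test was made of these medians. Averaged over these 42, the saccharin arrays stood at 6.86 to 6.94 at 1 h and 6.16 to 6.25 at 3 h. Water array C365 stood at 6.58 and C371 at 6.42, above the other water arrays of 3 h at 6.26 and 6.27. The SD over arrays of 3 h was larger after water for 41 of the 53, which were chosen on the saccharin arrays, against 44.4% of all probe sets, and for Nr4a1 it was 0.70 against 0.27.

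Markers of cells that border the cortex were examined beside these changes. All 22 leptomeningeal and fibroblast markers measured had a positive change, with a median of 0.35, 17 of them at an unadjusted p under 0.05 (background 4.56%) and 0 called. Col1a1, a fibrillar collagen, read 7.19, 7.52, 7.36 and 7.56 at 1 h and 6.98, 7.19, 7.04 and 6.61 at 3 h (0.45, SE 0.12, adjusted p = 0.157). The mean of the 22 ran from 6.63 to 6.87 at 1 h and from 6.07 to 6.73 at 3 h, so the groups overlapped, with C372 the lowest. With this mean as a covariate 31 probe sets were called, 29 of them among the 53. The early genes Fos, Junb, Nr4a1, Klf10, Arc and Dusp1 kept their calls, while the 24 that did not included Klf2 (adjusted p = 0.267), Klf4 (0.0947 on its brighter probe set), Jun (0.376), Gadd45b (0.145), Ephb3 (0.0908), Pde10a (0.0669) and Podxl (0.211). Their direction was kept, and over all alternatives the change nearest 0 was 0.65 for Klf2, 0.47 for that probe set of Klf4, 0.25 for Jun, 0.62 for Gadd45b, 0.39 for Ephb3, -0.39 for Pde10a and -0.25 for Podxl. The 16 striatal neuron markers, for tissue under the insular cortex where Pde10a and Chrm4 are abundant, had 12 negative changes, a median of -0.03 and 0 calls. Of these 16, 4 had an unadjusted limma p under 0.05 towards 3 h (background 3.43%) and 0 towards 1 h. The mean of the 16 ran from 5.70 to 5.84 at 1 h and 5.78 to 5.85 at 3 h. With that mean as a covariate 34 probe sets were called, 32 of them among the 53, Pde7b, Pde10a and Chrm4 included. Excitatory neuron, inhibitory neuron, oligodendrocyte and astrocyte markers had 0 calls among 40 and medians of -0.04 to 0.04. Microglia markers had 9 of 11 negative and 0 calls. At an unadjusted limma p under 0.05 there were 3 towards 3 h (background 3.43%) and 0 towards 1 h (background 4.56%). The part of these markers in the other changes was not tested beyond the covariates.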

How the data were processed

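Messenger RNA was measured on Affymetrix RaGene 1.1 ST v1 arrays. The authors read the raw arrays with affy, brought all chips to 1 distribution by quantile normalisation and reduced each probe set to a log2 value by RMA. The deposited log2 values were used unchanged. Genes were named through the annotation of the array platform, which gives 1 gene for 15209 probe sets, several for 306 and no entry for 13311. Of the 15209, 15178 matched the RefSeq gene table.

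The 4 group means of all 16 arrays were fitted in limma 3.58.1 (R 4.3.3), and two-sided moderated tests gave saccharin 1 h minus 3 h, water 1 h minus 3 h and their difference. Replicates are separate rats, and the number of arrays limits the precision. Of 120 pairs of arrays 0 were identical. Gene lists are described by counts and medians, with the brightest probe set of each gene, and 477 of their 540 entries were measured. The rule for named genes took up to 20 called probe sets per direction in order of p and up to 4 members of each list. It added the genes that the study names, except Btg2, which has no entry in the annotation. The 6 leading genes of the difference between tastes, and Gapdh and Actb, completed it. The 12 called probe sets outside the rule, and Vipr1, Fosl2, Egr3, Egr4, Klf6, Klf7, Klf11, Plk2, Bdnf, Homer1, Ptgs2, Per2, Slc17a7 and Camk2a, were named after their values were seen. The comparison, lists and tests were chosen with earlier results of these data known. Promoter motifs were counted in Python 3.11.15 on both strands. The limma step was tested on simulated data first. As alternatives, other sets of probe sets, filters on dim signals, normalisations, priors, array weights, 2 marker covariates, a fit per taste and the omission of each array were run.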

Additional observations from a re-analysis of the deposited data

Results flagged for a closer look

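In 21 of 328 groups of 4 saccharin arrays 1 array stood far from the other 3 on Dixon's ratio of gap to range, and chance gives about 1 in 20. Arrays C366 and C377 account for 4 each, C375 and C380 for 3 each, C368, C370 and C379 for 2 each and C372 for 1.

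Of called genes there were 6. Per1 read 7.2577 on C380 (nearest other array of its group 7.0616), Arhgap17 5.5857 on C377 (5.731) and Podxl 6.3437 on C380 (6.2473), all at 1 h. At 3 h, Pde10a read 7.8281 on C366 (7.7024), Selenow 8.493 on C366 (8.6185) and Gpr19 6.2257 on C372 (6.4372). Pde10a, Per1 and Gpr19 stood out away from the other time point, and Selenow, Arhgap17 and Podxl towards it. All 6 genes stayed called without the array in question.

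The others were not called. Regulators of transcription among them were Nab1, an EGR corepressor, at 5.9951 on C370 (6.1489), Atf1, a CREB relative, at 6.6807 on C377 (6.7334), Bhlhe41, a clock repressor, at 7.6206 on C375 (7.3821), Npas2, a partner of Bmal1, at 8.4365 on C368 (8.359), and Nr3c2, the mineralocorticoid receptor, at 6.9212 on C377 (6.9606). Btg3, an antiproliferative gene, read 7.2488 on C368 (6.9927), and its change of 0.26 had an adjusted p of 0.164 with that array and 0.0202 without it. In signalling genes the values were 6.3079 on C377 (6.4396) for Pde5a, a phosphodiesterase of cyclic GMP, 9.6815 on C366 (9.5489) for the AMPA receptor subunit Gria1, and 10.8269 on C366 (10.7175) for Selenof, a selenoprotein of the endoplasmic reticulum. The interneuron peptides Cort and Vip read 6.4415 on C380 (6.5422) and 6.0882 on C379 (6.4077). Among cell markers, the astrocyte glutamate transporter Slc1a2 read 11.5145 on C379 (11.4198), the microglial receptor Cx3cr1 7.3766 on C375 (7.535), the choroid plexus gene Kl 4.1195 on C375 (4.3092) and the haemoglobin gene Hbb 9.5476 on C370 (8.8908).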

How the results depend on the processing

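The count of 53 probe sets called after saccharin fell to 31 with the leptomeningeal marker mean as a covariate and to 34 with the striatal marker mean, with 23 and 26 of them higher at 1 h. The 11 called higher at 3 h came to 7 with only the 8 saccharin arrays. Over the other alternatives the 53 ran from 36 (least squares without moderation) to 76 (trend and robust prior), and with 1 array left out from 42 (without C379 or without C380) to 66 (without water array C365). The 114 at the study's cut-off became 272 when all 28826 probe sets were tested. After water the 19 came to 3 with only the 8 water arrays, 11 with all probe sets, 30 without the dimmest 50% and 6 by least squares, and with 1 array left out they ran from 8 (without C376) to 28 (without C373), with 9 without C367. The difference between the tastes had 0 calls in limma in every alternative run. Of the 53, 23 passed in every setting that tested them and 30 were lost in at least 1 of 28, and 0 reversed. Causes of these moves were not tested. No paired analysis was possible because the groups share no replicate number.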

Other observations

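Beyond the groups of the report, markers of endothelial and mural cells had 0 calls among 13 and a median change of 0.08, and those of blood cells 0 among 4 with a median of 0.09. Choroid plexus markers had 0 calls among 7, with Kcnj13, a potassium channel of that epithelium, at 0.42 (adjusted p = 0.358) and Aqp1, a water channel, at 0.25 (adjusted p = 0.444). Ttr, its most abundant product, stood at 3.30 at 1 h and 3.32 at 3 h. When all 28826 probe sets of the table were tested, 5 of the 13617 without a single named gene were called after saccharin, 3 higher at 1 h and 2 higher at 3 h. All 5 had the same direction after water, 4 of them with an unadjusted p under 0.05.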
